A study of Homo sapiens with 6 samples.

Results

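Genes of sphingolipid synthesis and breakdown were followed in MV4-11 cells with and without knockdown of ENO1, which encodes an enolase of glycolysis. MV4-11 is an established line from an acute myeloid leukaemia and carries a KMT2A fusion and an internal tandem duplication of FLT3. The members were 33 genes listed by symbol, from serine palmitoyltransferase to the enzymes that form and remove sphingosine-1-phosphate, and they were found by the Ensembl identifiers of the count table. Of the 33 genes, 32 had a row among the 23227 genes of the table, and CERS4 was not analysed here. A filter on low counts left 28 members among 14635 tested genes, and SPTLC3, SGMS2, B4GALT6 and SGPP1 fell below it. The tested samples were 3 libraries labelled sh-ENO1, described as an ENO1 knockdown, whose table columns carry the name of 1 hairpin (sh2). They were set against 3 libraries labelled NC, described as having had no treatment. All 6 are given as WT in genotype and come from the same line. The letters NC are not spelled out and the labels do not say whether these cells carried a control hairpin, so effects of the hairpin on other targets and effects of the ENO1 loss cannot be told apart. Nothing in the labels ties a library to its own culture. The p-values therefore rest on the spread among these 6 libraries, and that spread may be technical.

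Sphingolipids are built on a long-chain base. Serine palmitoyltransferase joins serine and palmitoyl-CoA at the endoplasmic reticulum, ORMDL proteins restrain it, and ceramide synthases attach a second acyl chain before a desaturase completes ceramide. Ceramide is then carried to the Golgi and turned into sphingomyelin or, through glucosylceramide, into gangliosides and other glycosphingolipids, or it is phosphorylated. Breakdown runs through sphingomyelinases, lysosomal glycosidases and ceramidases to sphingosine, whose phosphate acts as a signal to cells and is cleaved by a lyase, the only exit from the pathway. In leukaemia cells ceramide is known mainly as a lipid that favours cell death, and sphingosine-1-phosphate as one that favours survival.

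Library totals ran from 20044602 to 21670135 counts in the knockdown group and from 24778469 to 26373960 in the NC group. ENO1, the targeted gene, had 2225, 2225 and 2070 counts in the knockdown libraries, against 84016, 79566 and 80058 in the NC libraries, which left 3.13% of the NC level. The myeloid genes PTPRC, CD33, SPI1, FLT3, MPO, LYZ and CSF1R were all detected, with a summed level of 1729 to 1781 CPM (counts scaled to library size with TMM factors) in the knockdown libraries and of 1699 to 1719 CPM in the NC libraries. Of the 7, 4 were called higher and 3 lower, among them the granule genes MPO and LYZ, with log2 fold changes of -2.61 and -2.41 (edgeR adjusted p = 5.17e-18 and 3.23e-27). PECAM1, an endothelial marker that myeloid cells also express, was lower as well (log2 fold change -0.50). Erythroid markers were not analysed here, and epithelial, fibroblast and T cell markers summed to at most 0.541 CPM in any library. Of the B cell markers, CD79A was higher, at 0.833 ± 0.221 CPM in knockdown and 0.257 ± 0.174 CPM in NC libraries (SD, n = 3 each). Mitochondrially encoded genes took 9.27 to 9.69% of the counts in knockdown libraries and 6.69 to 6.88% in NC libraries. The part of these markers and of the mitochondrial share in the results was not tested. Within the groups, knockdown replicate 3 and NC replicate 2 differed most from their fellow replicates. In bulk RNA a change in the cells' makeup and a change of RNA per cell cannot be told apart.

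The sphingolipid genes did not move as a block. The glucosylceramide synthase UGCG, the sphingomyelin synthase SGMS1 and the ganglioside enzyme ST3GAL5 were 2.61-, 2.58- and 2.65-fold higher in knockdown cells. The ceramidases ASAH1 and ACER3 were also higher, and the 3 ceramide synthases analysed, ceramide kinase and the small subunit of serine palmitoyltransferase were lower. Of the 28 tested members, 9 were called higher and 11 lower at an edgeR adjusted p below 0.05, which is 71.4% of them. Across all genes tested, 59.9% were called, 29.4% higher and 30.5% lower, so the share among the members stood close to that of the whole transcriptome. The median log2 fold change was -0.06 over the tested members and 0.004 over all tested genes, and its median size was 0.35 and 0.30. Changes of at least 2-fold were called for 4 members (14.3%), namely UGCG, SGMS1, ST3GAL5 and CERS6, against 10.1% of all genes; 3 were higher (6.51% of all genes) and 1 lower (3.56%). The libraries of the groups did not overlap for 20 members (71.4%), against 64.3% of all genes.

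**Figure D1:**
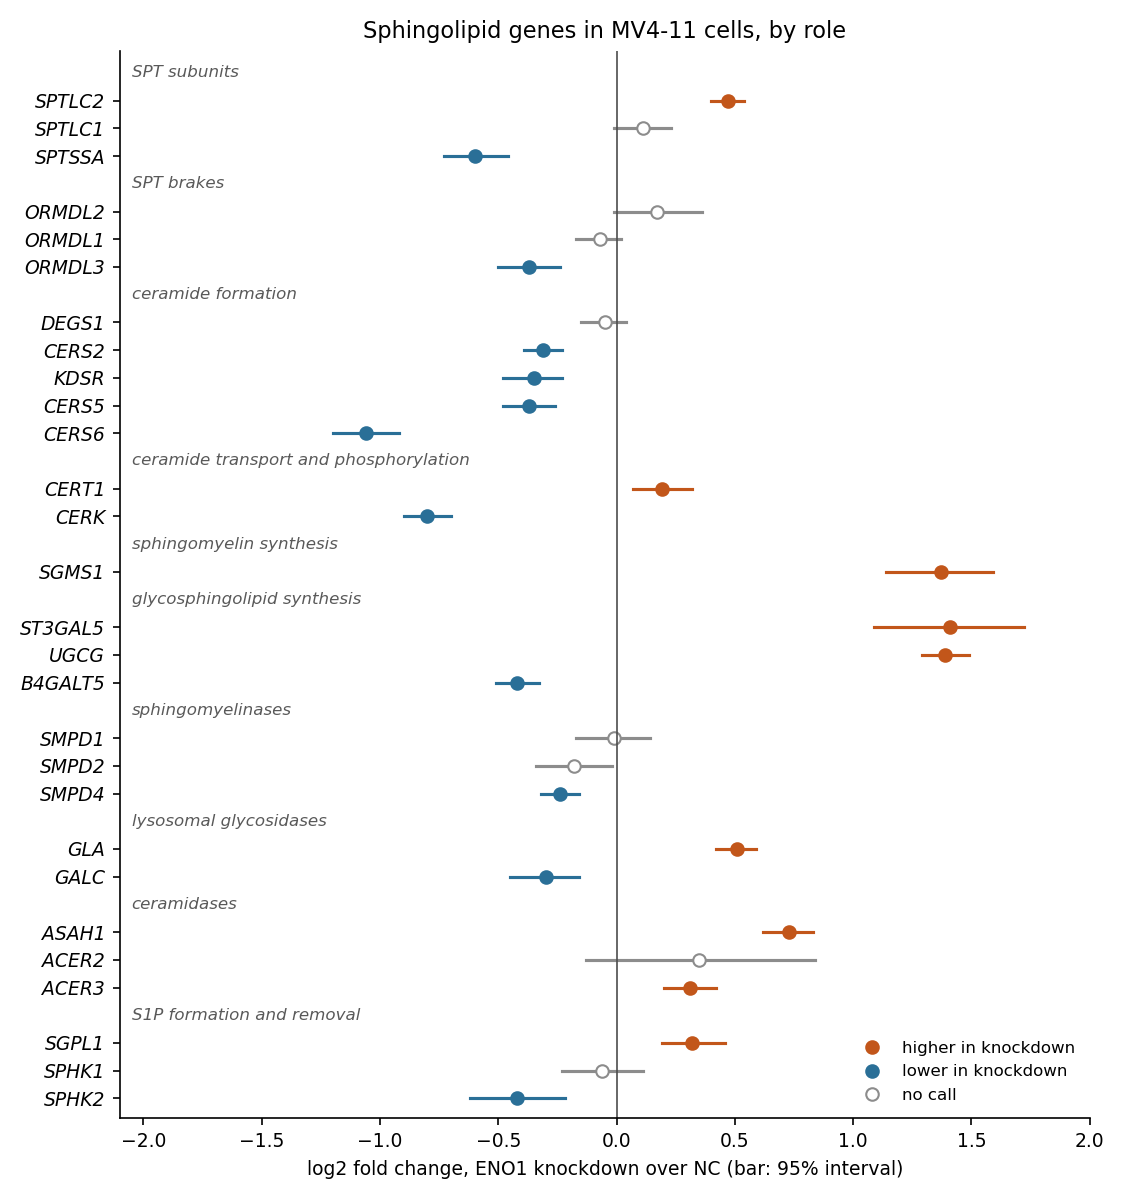
Log2 fold change of the 28 tested sphingolipid genes, ENO1 knockdown over NC (n = 3 libraries each), grouped by role, with points for the edgeR estimate and bars for its 95% interval, filled where the adjusted p is below 0.05. SGMS1, UGCG and ST3GAL5 lie at 1.37, 1.39 and 1.41, CERS6 lies at -1.06 and CERK at -0.80.

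The largest rises among the members were in transcripts of glycosphingolipid and sphingomyelin synthesis. UGCG (ENSG00000148154, GRCh38 chromosome 9, 111896766 to 111935369, plus strand), the glucosylceramide synthase that commits ceramide to glycosphingolipids, had 78.8, 77.5 and 80.7 CPM in the knockdown libraries, against 30.6, 30.0 and 30.0 CPM in the NC libraries. All knockdown libraries lay far above all NC libraries, and the replicates of each group were close together. The log2 fold change was 1.39 ± 0.05 (SE; edgeR adjusted p = 4.28e-19), a 2.61-fold difference. ST3GAL5 (ENSG00000115525, chromosome 2, 85837120 to 85905199, minus strand), the GM3 synthase that adds sialic acid to lactosylceramide and opens the ganglioside series, had 7.99, 7.12 and 8.21 CPM in knockdown libraries and 3.62, 2.54 and 2.59 CPM in NC libraries. Its groups did not overlap, although its level was low, and the log2 fold change was 1.41 ± 0.15 (SE; edgeR adjusted p = 7.87e-09).

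The main gene for the step between these enzymes moved the other way. B4GALT5, the main lactosylceramide synthase, had 69.6, 70.6 and 68.1 CPM in knockdown libraries and 88.3, 95.5 and 94.7 CPM in NC libraries, a log2 fold change of -0.42 ± 0.04 (SE; edgeR adjusted p = 3.73e-09). Its paralog B4GALT6 was near the limit of detection, with 4, 12 and 16 counts in knockdown libraries and 7, 8 and 5 in NC libraries, and was not tested. Per kb of exon, the level of UGCG was 1.16, 1.12 and 1.21 times that of B4GALT5 in the knockdown libraries, against 0.354, 0.321 and 0.325 times in the NC libraries. The order of these consecutive enzymes by transcript level per length was thus turned round in knockdown cells, with UGCG above B4GALT5 in every knockdown library and below it in every NC library. This ratio, like the others given here, was chosen after the values were seen and is given without a test.

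SGMS1 (ENSG00000198964, chromosome 10, 50305586 to 50625163, minus strand), the Golgi sphingomyelin synthase that competes with glucosylceramide synthase for ceramide, had 12.9, 13.8 and 13.9 CPM in knockdown libraries and 4.63, 5.33 and 5.83 CPM in NC libraries. The groups were well separated, with a log2 fold change of 1.37 ± 0.11 (SE; edgeR adjusted p = 2.29e-11). SGMS2, the synthase also found at the plasma membrane, had 4 counts over the knockdown libraries and 5 over the NC libraries. The level of UGCG per kb was 8.13 ± 0.349 times that of SGMS1 in knockdown libraries and 8.08 ± 1.03 times in NC libraries (SD, n = 3 each), a difference smaller than the spread between libraries. CERT1, which carries ceramide from the endoplasmic reticulum to the Golgi for sphingomyelin synthesis, had 35.4, 35.4 and 34.8 CPM in knockdown libraries and 28.9, 30.5 and 33 CPM in NC libraries. That rise was small, with a log2 fold change of 0.19 ± 0.06 (SE; edgeR adjusted p = 0.00775), and it did not pass without NC replicate 1 (edgeR adjusted p = 0.0806).

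**Figure D2:**
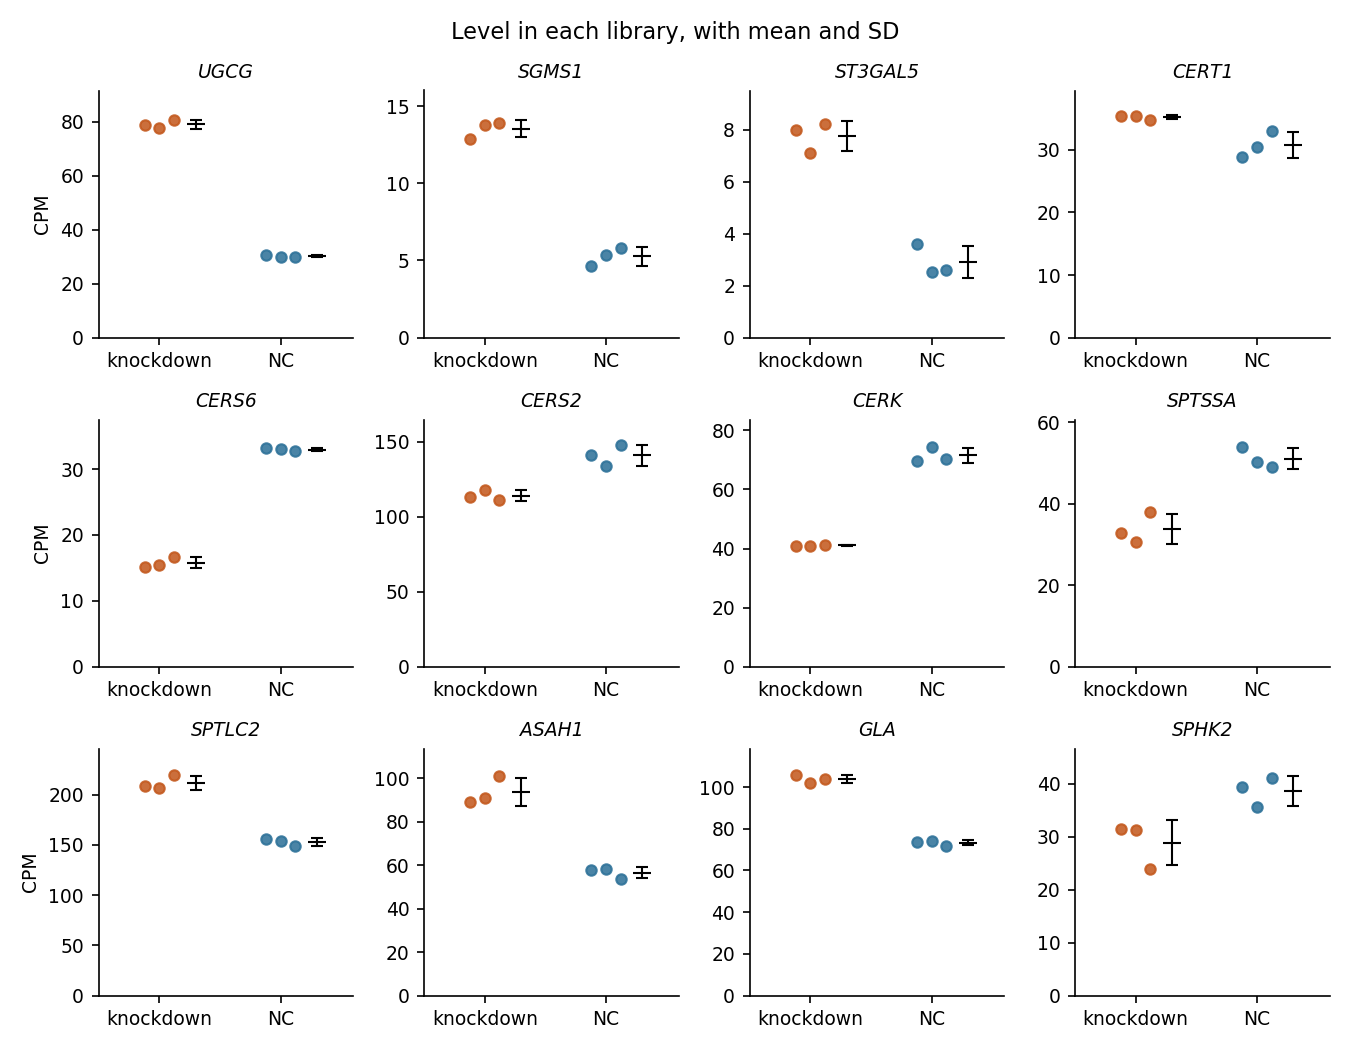
Level in CPM (linear axes from 0) of 12 sphingolipid genes in each library, knockdown on the left and NC on the right, with points for libraries and a bar for the mean and SD of 3. UGCG, SGMS1, ST3GAL5, CERT1, SPTLC2, ASAH1 and GLA are higher in every knockdown library than in any NC library, and CERS6, CERS2, CERK, SPTSSA and SPHK2 are lower.

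The promoter sequences of the 4 members with at least 2-fold changes are shown because these genes carry the largest differences and 3 of them moved together. They are the 250 bases before the annotated start, 5′ to 3′ on the strand of the gene, from RefSeq (GRCh38.p14), at chr9:111896564-111896813 on the plus strand for UGCG, chr10:50623957-50624206 on the minus strand for SGMS1, chr2:85888991-85889240 on the minus strand for ST3GAL5 and chr2:168456022-168456271 on the plus strand for CERS6. Capitals mark matches on either strand to the GC box (GGGCGG) and the CCAAT box (CCAAT), which were added after the values were seen.
UGCG: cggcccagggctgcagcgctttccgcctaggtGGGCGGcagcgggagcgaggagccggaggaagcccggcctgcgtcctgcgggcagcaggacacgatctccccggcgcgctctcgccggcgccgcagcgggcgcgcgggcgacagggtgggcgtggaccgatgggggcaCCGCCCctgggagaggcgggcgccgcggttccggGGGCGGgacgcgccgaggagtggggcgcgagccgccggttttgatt
SGMS1: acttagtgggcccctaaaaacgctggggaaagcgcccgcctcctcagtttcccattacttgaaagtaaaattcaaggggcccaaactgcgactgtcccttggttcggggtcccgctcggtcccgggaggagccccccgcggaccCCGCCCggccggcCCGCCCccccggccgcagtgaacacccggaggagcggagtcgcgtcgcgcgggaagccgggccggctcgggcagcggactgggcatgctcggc
ST3GAL5: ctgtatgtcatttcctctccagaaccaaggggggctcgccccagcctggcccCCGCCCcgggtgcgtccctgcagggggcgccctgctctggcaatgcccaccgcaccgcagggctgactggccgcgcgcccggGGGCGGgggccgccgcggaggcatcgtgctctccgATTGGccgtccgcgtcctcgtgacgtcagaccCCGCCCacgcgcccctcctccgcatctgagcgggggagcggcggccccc
CERS6: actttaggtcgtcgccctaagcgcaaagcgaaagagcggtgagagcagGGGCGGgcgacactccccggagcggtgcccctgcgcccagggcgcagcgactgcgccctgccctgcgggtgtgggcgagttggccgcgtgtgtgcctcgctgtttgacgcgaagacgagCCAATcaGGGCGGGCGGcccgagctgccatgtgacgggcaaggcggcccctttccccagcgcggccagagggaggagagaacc

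Promoters were found for 26 of the 33 members, all but SPTLC3, CERS2, CERS4, CERK, B4GALT6, ASAH1 and SGPP1. In that window the GC box occurred in 22 of the 26 members, the 4 shown among them, and in 66.0% of the promoters of all tested genes. The median share of G and C was 70.4% in the 26 promoters and 58% in all 27303 promoters, of tested and untested genes alike. These backgrounds differ, since the GC box occurred in 42.3% of all promoters and in 66.0% of those of tested genes. The median for the promoters of tested genes was not computed, so the 2 medians do not set the members apart from tested genes. The CCAAT box occurred in 7 of the 26, including ST3GAL5 and CERS6, and in 34.9% of tested genes. The TATA box (TATAAA), also added after the values were seen, occurred in none of the 26 and in 5.55% of tested genes. No match was found in the 26 promoters for the sterol regulatory element (TCACNCCAC), the E-box (CACGTG), the CLEAR element (TCACGTGA, which contains the E-box), the XBP1 element (TGACGTGG), the interferon element (TTCNNTTTC) or the C/EBP-ATF element (TGATGNAAT). These occurred in 0.844, 9.02, 1.71, 0.712, 5.82 and 0.351% of the promoters of tested genes, in the same order. Absence of these letters from the window says nothing about the factors, and other starts of these genes were not searched. For SMPD2, ACER2, SPTLC1, SGPL1, ORMDL3 and SPHK2 the bases just after the start were not found in a GENCODE 29 transcript of the gene. Their windows are thus less sure. SGMS2 is among the 26 although it was not tested.

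At the entry of the pathway, the subunits of serine palmitoyltransferase moved in opposite directions. SPTLC2, a catalytic subunit, had 209, 207 and 220 CPM in knockdown libraries and 156, 154 and 149 CPM in NC libraries. It was higher in every knockdown library, with a log2 fold change of 0.47 ± 0.03 (SE; edgeR adjusted p = 3.02e-12). SPTSSA, the small subunit that raises the activity of the enzyme, had 32.9, 30.6 and 38 CPM in knockdown libraries and 54.0, 50.3 and 49.1 CPM in NC libraries. All knockdown libraries lay below the NC libraries, with a log2 fold change of -0.60 ± 0.07 (SE; edgeR adjusted p = 2.22e-08). Per kb of exon, the level of SPTLC2 was 1.91 ± 0.149 times that of SPTSSA in knockdown libraries and 0.909 ± 0.0279 times in NC libraries (SD, n = 3 each). SPTLC1, the obligate partner of SPTLC2, stood at 50.9 ± 4.22 CPM in knockdown and 47.1 ± 2.68 CPM in NC libraries (SD, n = 3 each). Its groups overlapped, and its log2 fold change of 0.11 (95% interval -0.01 to 0.23) did not pass (edgeR adjusted p = 0.107), though it passed with library-size scaling (0.0189). SPTLC3, the alternative catalytic subunit, had 11 counts over the knockdown libraries and 3 over the NC libraries.

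Of the ORMDL genes, whose products hold serine palmitoyltransferase in check, ORMDL3 passed the test and the other two did not. It had 28.4, 28.5 and 28.6 CPM in knockdown libraries and 34.1, 37.2 and 39.3 CPM in NC libraries, a log2 fold change of -0.37 ± 0.06 (SE; edgeR adjusted p = 9.67e-06). ORMDL1 stood at 63.8 ± 2.32 CPM in knockdown and 67.0 ± 1.26 CPM in NC libraries (SD, n = 3 each; 95% interval of the log2 fold change -0.17 to 0.02). ORMDL2 stood at 17.2 ± 1.88 and 15.2 ± 1.12 CPM in the same groups (interval -0.01 to 0.36), and passed with library-size scaling (edgeR adjusted p = 0.0307). Per kb of exon, ORMDL1 gave 54.0 ± 1.36% of the family in knockdown and 52.6 ± 1.22% in NC libraries, and ORMDL3 gave 25.5 ± 0.776% and 30.5 ± 2.05% in the same groups (SD, n = 3 each). The share of ORMDL3 was lower in every knockdown library than in any NC library. That of ORMDL2 was higher in every knockdown library, at 20.5 ± 1.77% in knockdown and 16.8 ± 1.11% in NC libraries (SD, n = 3 each). The exons of ORMDL2 overlap the opposite-strand gene DNAJC14 over 32.7% of their length. Since the strand setting of the counting is not given, the level of ORMDL2 is uncertain, and so are the shares of all ORMDL genes.

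Among the members, transcripts of the ceramide formation genes tested were lower, except DEGS1 at the last step. Only RNA was measured, not ceramide or enzyme activity. KDSR, the reductase that makes sphinganine, had 24.6, 24.6 and 25.6 CPM in knockdown libraries and 32.5, 32.2 and 30.9 CPM in NC libraries (log2 fold change -0.35 ± 0.06 SE; edgeR adjusted p = 1.68e-05). All 3 ceramide synthase genes analysed fell. CERS6 (ENSG00000172292, chromosome 2, 168455862 to 168775137, plus strand), which makes C16 ceramide in the main, fell most, to 15.2, 15.5 and 16.7 CPM in knockdown libraries, against 33.2, 33 and 32.7 CPM in NC libraries. The groups were far apart and the log2 fold change was -1.06 ± 0.07 (SE; edgeR adjusted p = 1.86e-13), which left 47.8% of the NC level. CERS5, also a synthase of C16 ceramide, stood at 34.7 ± 1.58 CPM in knockdown and 44.8 ± 0.685 CPM in NC libraries, and CERS2, which uses very long acyl chains, at 114 ± 3.89 and 141 ± 6.95 CPM in the same groups (SD, n = 3 each). Their log2 fold changes were -0.37 and -0.31 (edgeR adjusted p = 1.46e-06 and 1.97e-07). DEGS1, the desaturase that completes ceramide, had 64.1, 62.8 and 64.2 CPM in knockdown libraries and 66.7, 68.9 and 62.6 CPM in NC libraries. Those ranges overlapped and no change was called (log2 fold change -0.05, 95% interval -0.15 to 0.04; edgeR adjusted p = 0.347).

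Within the ceramide synthase genes the shares of the summed level differed between groups. Per kb of exon CERS6 held 6.69, 6.53 and 7.31% of the summed level of CERS2, CERS5 and CERS6 in knockdown libraries, against 11.0, 11.4 and 10.5% in NC libraries. CERS2 held 77.0 ± 1.12% in knockdown and 73.1 ± 0.977% in NC libraries, and CERS5 held 16.1 ± 0.728% and 16.0 ± 0.547% in the same groups (SD, n = 3 each). The shares of CERS6 and CERS2 did not overlap between groups, while that of CERS5 did. With the longest transcript as length, the mean share of CERS6 was 3.74% in knockdown and 6.10% in NC libraries. The exons of CERS6 overlap the opposite-strand CERS6-AS1 over 41.4% of their length. Those of CERS2 overlap opposite-strand genes over 37.2%, SETDB1 over 20.4%. SETDB1 was higher in knockdown cells, by 0.24 on the log2 scale (edgeR adjusted p = 3.81e-05), while CERS2 was lower. CERS6-AS1 was not analysed here. With the strand setting of the counting not given, the levels and shares of CERS6 and CERS2 are uncertain.

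**Figure D3:**
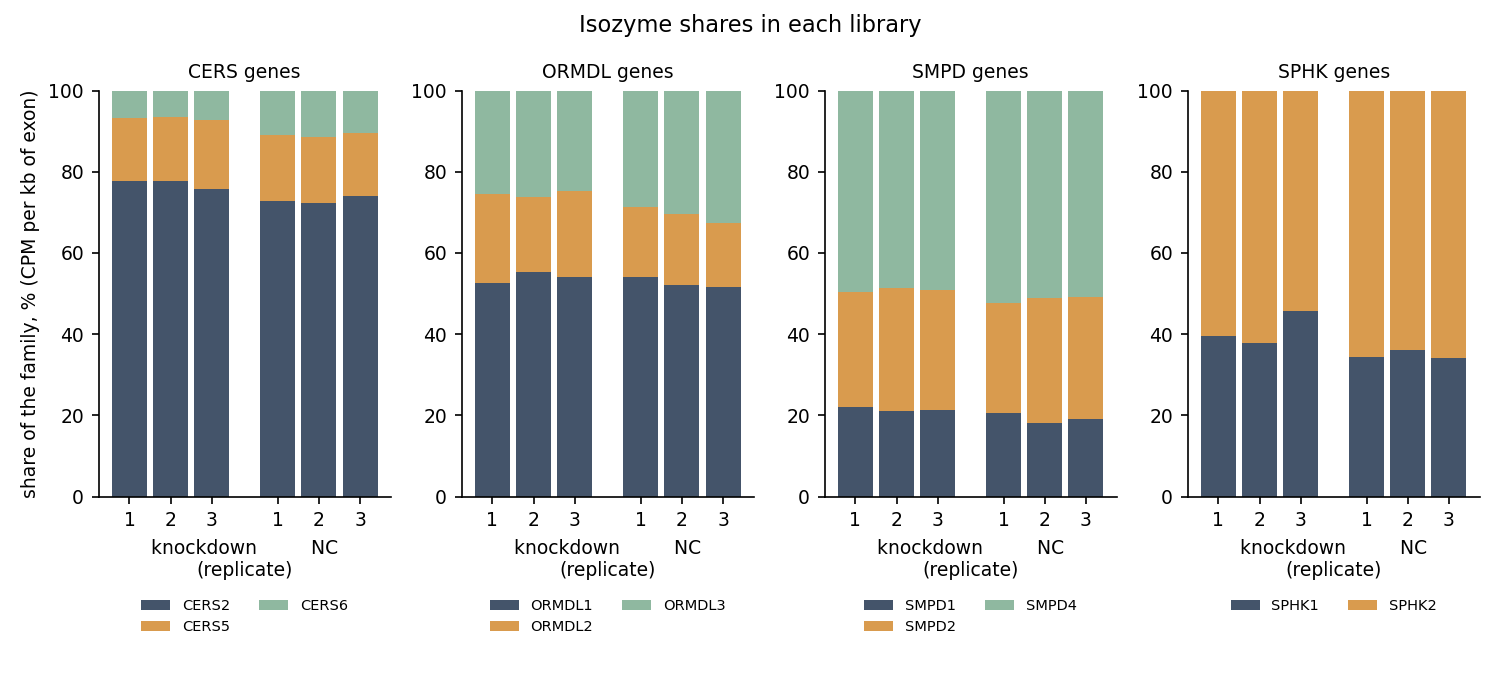
Share of each gene in the summed level of its family (percent, CPM per kb of exon) in each library, knockdown on the left and NC on the right, for ceramide synthases, ORMDL genes, sphingomyelinases and sphingosine kinases. CERS6 takes 6.53 to 7.31% in knockdown and 10.5 to 11.4% in NC libraries, and SPHK1 takes 37.9 to 45.7% in knockdown and 34.1 to 36.0% in NC libraries.

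Ceramide kinase was among the clearest falls. CERK (ENSG00000100422, chromosome 22, 46684411 to 46738261, minus strand), which makes ceramide-1-phosphate, had 41.0, 40.8 and 41.3 CPM in knockdown libraries and 69.8, 74.4 and 70.4 CPM in NC libraries. Replicates were tight and the groups far apart, with a log2 fold change of -0.80 ± 0.05 (SE; edgeR adjusted p = 5.86e-14), which left 57.4% of the NC level.

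Of the 3 sphingomyelinase genes among the members, 1 was called lower and 2 were not called. SMPD4, a neutral sphingomyelinase of the endoplasmic reticulum and nuclear envelope, was the lower one, at 123 ± 5.11 CPM in knockdown and 146 ± 4.23 CPM in NC libraries (SD, n = 3 each; log2 fold change -0.24, edgeR adjusted p = 3.73e-06). Its value is uncertain, since 16.6% of its 50-base stretches also occur in transcripts of other genes, SMPD4P2 among them, and MZT2B overlaps it on the opposite strand and was also lower (log2 fold change -0.61). SMPD1, the lysosomal acid sphingomyelinase, had 21.1, 20.3 and 19.0 CPM in knockdown libraries and 21.1, 18.9 and 21.1 CPM in NC libraries. Its groups overlapped throughout, with a 95% interval of -0.17 to 0.14 for the log2 fold change. SMPD2 stood at 20.1 ± 1.18 CPM in knockdown and 22.8 ± 2.21 CPM in NC libraries (SD, n = 3 each) and missed the threshold (log2 fold change -0.18; edgeR adjusted p = 0.0527). It passed without knockdown replicate 2 and without NC replicate 1 (edgeR adjusted p = 0.0323 and 0.00897). The exons of SMPD2 overlap the opposite-strand gene PPIL6 over 20.3% of their length, so its level and share are uncertain.

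Of the 3 ceramidase genes tested, ASAH1 and ACER3 were higher and ACER2 was not called, and of the lysosomal glycosidases GLA was higher and GALC lower. ASAH1 (ENSG00000104763), the acid ceramidase of the lysosome, had 88.9, 91.0 and 101 CPM in knockdown libraries and 57.8, 58.3 and 53.6 CPM in NC libraries. All knockdown libraries were above all NC libraries, and the log2 fold change was 0.73 ± 0.05 (SE; edgeR adjusted p = 9.92e-13). ACER3, the alkaline ceramidase that prefers unsaturated long-chain ceramides, stood at 51.2 ± 2.98 CPM in knockdown and 41.3 ± 1.42 CPM in NC libraries (SD, n = 3 each; log2 fold change 0.31, edgeR adjusted p = 1.83e-05). ACER2, the Golgi ceramidase, was low at 2.70 ± 0.694 CPM in knockdown and 2.10 ± 0.615 CPM in NC libraries (SD, n = 3 each) with overlapping groups, and 12.2% of its 50-base stretches occur in another gene. GLA, the alpha-galactosidase that trims globotriaosylceramide, had 106, 102 and 104 CPM in knockdown libraries and 73.8, 74.0 and 71.9 CPM in NC libraries (log2 fold change 0.51 ± 0.04 SE; edgeR adjusted p = 1.87e-11). GALC, which removes galactose from galactosylceramide and psychosine, was lower, with 21.5, 22.1 and 21.5 CPM in knockdown libraries and 25.2, 29.3 and 25.9 CPM in NC libraries (log2 fold change -0.30 ± 0.07 SE; edgeR adjusted p = 0.000583). Both enzymes are lysosomal, so genes of the same compartment went both ways.

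Genes of sphingosine-1-phosphate turnover also differed. SPHK1, the sphingosine kinase of the cytosol and plasma membrane, had 15.1, 14.0 and 14.8 CPM in knockdown libraries and 15.2, 14.7 and 15.6 CPM in NC libraries, and no change was called (95% interval of the log2 fold change -0.23 to 0.11). SPHK2, the kinase found largely in the nucleus and at organelles, had 31.4, 31.2 and 23.9 CPM in knockdown libraries and 39.3, 35.5 and 41.1 CPM in NC libraries. It was lower in every knockdown library, the third one most (log2 fold change -0.42 ± 0.09 SE; edgeR adjusted p = 0.00158). Per kb of exon SPHK2 gave 59.0 ± 4.14% of the kinase pair in knockdown and 65.1 ± 1.01% in NC libraries (SD, n = 3 each), a difference of -6.12 percentage points that was -3.78 without knockdown replicate 3. The opposite-strand genes AC022154.1, DBP and RPL18 overlap 22.3% of the exon length of SPHK2, with 11.0% for DBP and 11.3% for AC022154.1. The level and share of SPHK2 are therefore uncertain. SGPL1, the lyase that cleaves sphingosine-1-phosphate for good, had 31.3, 32.5 and 30.3 CPM in knockdown libraries and 23.8, 26.9 and 24.5 CPM in NC libraries, and was higher (log2 fold change 0.32 ± 0.07 SE; edgeR adjusted p = 0.00011). The phosphatase gene SGPP1 had 2 counts over the knockdown libraries and 0 over the NC libraries.

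Compared per length, the 28 tested members spanned a wide range of levels. Among them GLA was the highest in both groups on the length of all exons, at 45.8 ± 0.957 CPM per kb in knockdown and 32.2 ± 0.524 in NC libraries, and ST3GAL5 the lowest, at 0.477 ± 0.0353 and 0.179 ± 0.0376 CPM per kb in the same groups (SD, n = 3 each). In the knockdown libraries DEGS1 (25.3 ± 0.307 CPM per kb), CERS2 (24.5 ± 0.837) and SPTLC2 (23.2 ± 0.757) followed, and CERS2 lay within its spread of the mean of DEGS1. In the NC libraries CERS2 (30.4 ± 1.5 CPM per kb) and DEGS1 (26.3 ± 1.26) came next, and SPTLC2 stood at 16.7 ± 0.389, next to ORMDL1 at 16.9 ± 0.318, from which it did not differ beyond the spread. UGCG held rank 5 of 28 in the knockdown libraries, against rank 15 in the NC libraries (rank 7 against 17 with the longest transcript as length). SGMS1 remained near the bottom in spite of its rise, at rank 25 in knockdown and rank 27 in NC libraries. ASAH1 held rank 16 in knockdown and rank 21 in NC libraries, or 9 and 15 with the longest transcript, so its place depends on the length used. The ends of the order depend on it too. With the longest transcript CERS2 was the highest in NC libraries, at 55.5 CPM per kb against 51.4 for GLA. ACER2 was then the lowest in knockdown libraries, at 1.2 CPM per kb against 1.26 for ST3GAL5.

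**Figure D4:**
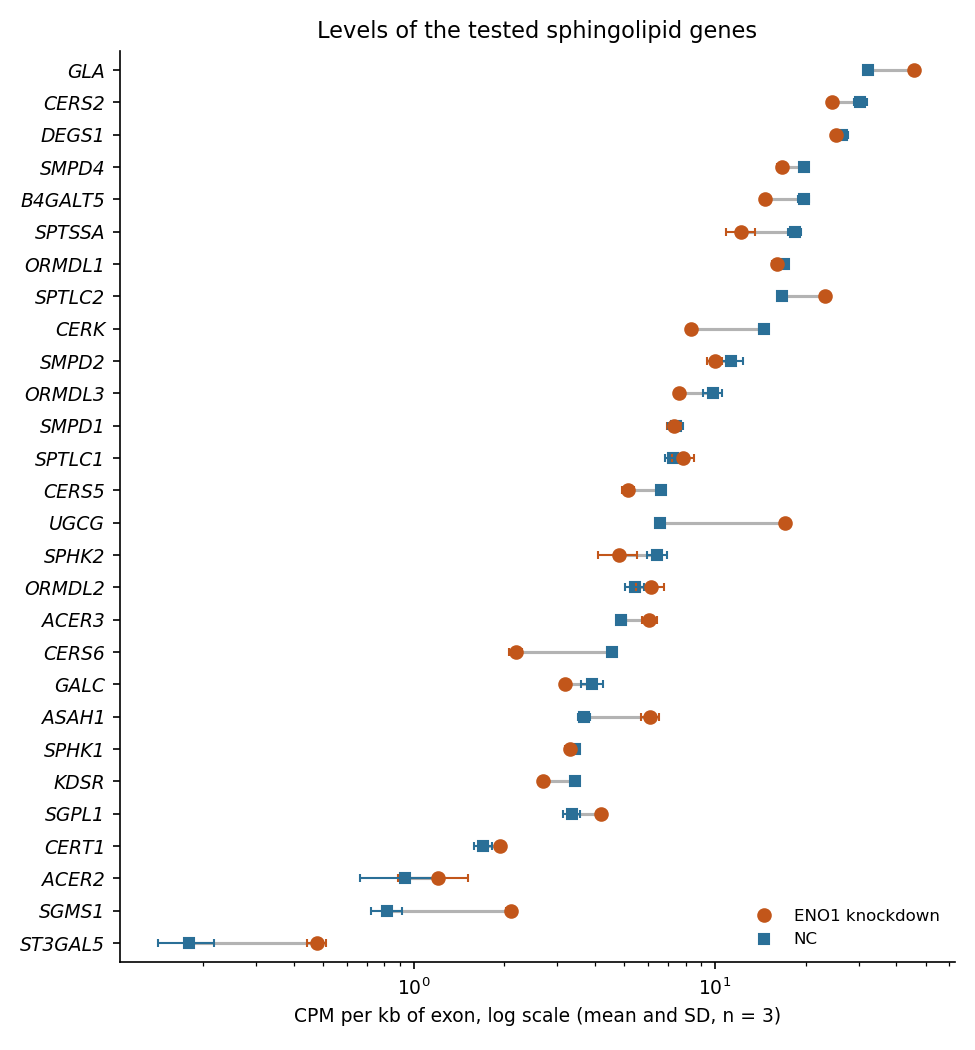
Level of the 28 tested members in CPM per kb of exon (log axis), circles for knockdown and squares for NC, each the mean of 3 libraries with its SD, ordered by the NC level. UGCG lies far to the right of its NC value, at 17.1 in knockdown against 6.55 CPM per kb in NC libraries, and CERS6 lies to the left of its own, at 2.18 in knockdown against 4.56 in NC libraries.

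Other genes of the same pathways were read from lists of 54 genes, of which 37 were tested. Of these, 17 were called higher and 9 lower, with a median log2 fold change of 0.14, beside 29.4% higher, 30.5% lower and a median of 0.004 over all tested genes. The counts by list are descriptions to be read against these shares. In the list of lysosomal breakdown, which also holds the non-lysosomal GBA2, 6 of 10 genes were higher and 1 was lower, with a median of 0.21. The activator protein gene GM2A, which lifts GM2 ganglioside from membranes for its breakdown, had 94.8, 93.0 and 93.8 CPM in knockdown libraries and 54.3, 58.9 and 57.7 CPM in NC libraries (log2 fold change 0.72, edgeR adjusted p = 7.56e-14). The glucosylceramidase GBA2 stood at 95.8 ± 1.22 CPM in knockdown and 61.0 ± 0.722 CPM in NC libraries, and arylsulfatase A (ARSA), which desulfates sulfatide, at 61.5 ± 4.86 and 43.9 ± 0.525 CPM in the same groups (SD, n = 3 each; log2 fold changes 0.65 and 0.49, edgeR adjusted p = 1.89e-13 and 1.27e-08).

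In the list of S1P receptors and handling, 2 of 7 tested genes were higher and 3 lower, with a median of 0.03. The receptor gene S1PR3 had 4.28, 4.08 and 5.51 CPM in knockdown libraries and 16.2, 15.9 and 16.8 CPM in NC libraries, the clearest difference of that list (log2 fold change -1.82 ± 0.11 SE; edgeR adjusted p = 7.28e-14). S1PR5 had 2, 3 and 9 counts in knockdown libraries and 43, 34 and 36 counts in NC libraries (log2 fold change -2.75 ± 0.43 SE; edgeR adjusted p = 3.34e-06). S1PR2 was at 3.15 ± 0.653 CPM in knockdown and 3.10 ± 0.296 CPM in NC libraries (SD, n = 3 each), with overlapping groups, and S1PR4 had 2 and 4 counts over the same groups. The exporter gene SPNS2 was higher (log2 fold change 0.36; edgeR adjusted p = 0.000168), as was ALDH3A2 (log2 fold change 0.22; edgeR adjusted p = 0.000934), the aldehyde dehydrogenase that oxidises a product of the lyase. MFSD2B, another gene of S1P handling, was lower (log2 fold change -0.44; edgeR adjusted p = 0.00276). Its level is uncertain, since 11.6% of its 50-base stretches also occur in other genes.

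In the list of de novo synthesis and chain length 4 of 7 genes were higher and 3 lower, with a median of 0.17. DEGS2, the enzyme that hydroxylates as well as desaturates dihydroceramide, stood at 4.69 ± 1.05 CPM in knockdown and 1.77 ± 0.0988 CPM in NC libraries (SD, n = 3 each; log2 fold change 1.41, edgeR adjusted p = 4.83e-07). ELOVL1, the elongase of very long acyl chains, and HACD3 were higher by 0.34 and 0.27 on the log2 scale (edgeR adjusted p = 2.34e-07 and 4.96e-07), while TECR, the reductase of the same elongation cycle, was lower (log2 fold change -0.20; edgeR adjusted p = 8.27e-05). In the sphingomyelin and ceramide list 3 of 7 genes were higher and 1 lower, with a median of 0.01. The neutral sphingomyelinase gene SMPD3 stood at 6.57 ± 1.27 CPM in knockdown and 3.44 ± 0.255 CPM in NC libraries (SD, n = 3 each; log2 fold change 0.93, edgeR adjusted p = 8.90e-06). Its exons overlap other genes over 13.9% of their length, so its level is uncertain. The lipid carriers CPTP, for ceramide-1-phosphate, and GLTP, for glycolipids, were higher by 0.59 and 0.60, and SAMD8, which makes ceramide phosphoethanolamine, was lower (log2 fold change -0.41; edgeR adjusted p = 0.00106). In the list of other glycosphingolipid genes 2 of 6 were higher and 1 lower, with a median of 0.14. B3GALT4, which builds GM1, was higher by 0.46 and ST3GAL3 by 0.14 on the log2 scale, while ST3GAL2 was lower (log2 fold change -0.18; edgeR adjusted p = 0.00828). The exons of ST3GAL3 overlap other genes over 10.9% of their length, so its level is uncertain. B4GALNT1, the GM2 synthase, was close to the floor at 0.284 ± 0.089 CPM in knockdown and 0.598 ± 0.183 CPM in NC libraries (SD, n = 3 each) and was not called (edgeR adjusted p = 0.0511). The opposite-strand gene SLC26A10 overlaps 26.7% of the exon length of B4GALNT1, which makes its level uncertain too.

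**Figure D5:**
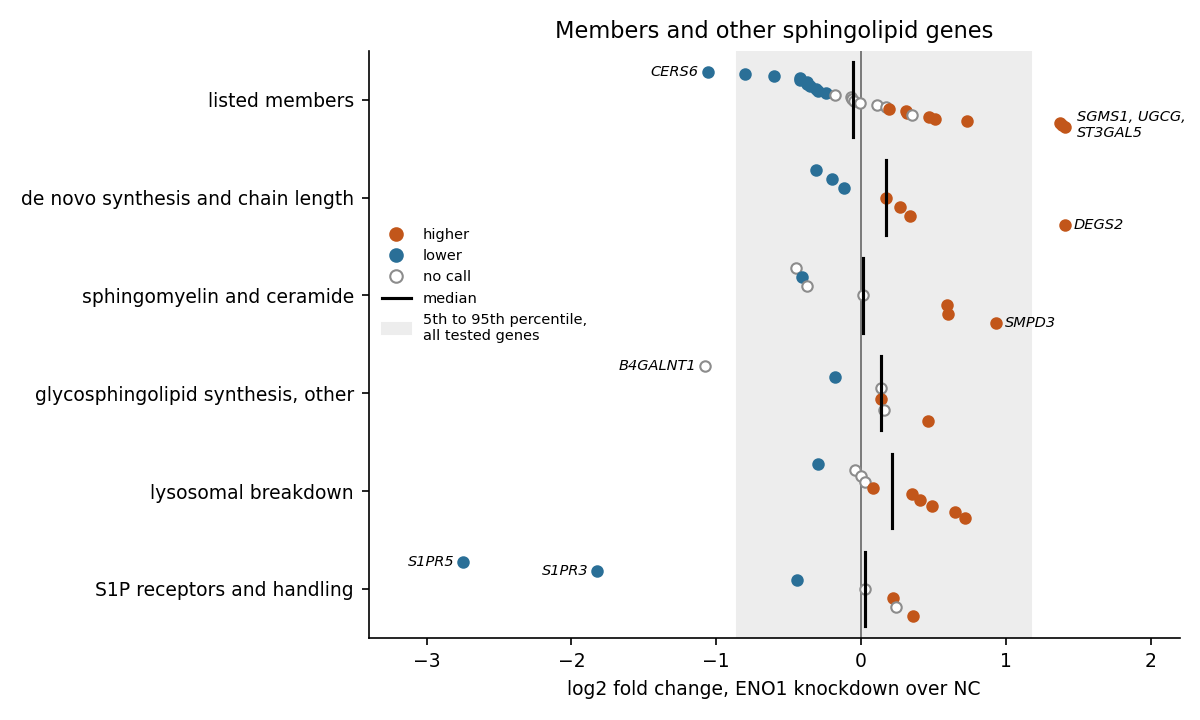
Log2 fold change, ENO1 knockdown over NC, of the listed members and of the other sphingolipid genes by list, filled where the edgeR adjusted p is below 0.05, with black bars for medians and a grey band from -0.85 to 1.17, the 5th to the 95th percentile of all tested genes. CERS6, B4GALNT1 (not called), S1PR3 and S1PR5 lie below the band at -1.06, -1.08, -1.82 and -2.75. SGMS1, UGCG, ST3GAL5 and DEGS2 lie above it.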

How the data were processed

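The data are 6 RNA-seq libraries of MV4-11 cells, made from total RNA taken up in Trizol with a TruSeq RNA kit, per the labels' protocols. HISAT2 2.0.5 and hg38 are named in the submitters' processing notes; what is not given in the sources used here is the read counter, its annotation and its strand setting. The authors deposited 1 table of raw read counts by Ensembl identifier, without normalization. Columns were matched to samples by the group and replicate number in their names.

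Differences were tested in R 4.3.3 with edgeR 4.0.16 (TMM factors, filterByExpr, robust quasi-likelihood fit and test, two-sided), with Benjamini-Hochberg adjustment over all 14635 tested genes and a threshold of 0.05. Standard errors are the log2 fold change over the root of the F statistic. The procedure was also run on simulated counts drawn with the same relative spread for all genes. That run cannot show how the calls hold where the spread varies between genes, and its outcome is not reported here. Levels between genes are compared as CPM per kb of the union of exons in GENCODE 29 (GRCh38). Totals of 20044602 to 26373960 counts limit precision chiefly for genes at a few CPM, and counting error alone does not cover differences between cultures. Alternatives were other scalings (RLE, upper quartile, library size), filters, DESeq2 1.42.0, limma-voom (limma 3.58.1), a replicate block, single libraries left out and a threshold of 0.01. Leaving out both libraries that stood apart was added after the data were seen.

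The members, the lists and the tests were chosen with earlier results of these data known. All members may be named; other pathway genes were named as up to 4 per list with the smallest adjusted p, and any named beyond that were chosen after their values were seen. Some genes of these lists that the rule names are not reported here.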

Additional observations from a re-analysis of the deposited data

How the results depend on the processing

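Of the 20 members called, 19 kept their direction and call under all 16 alternatives run, and CERT1 lost its call without NC replicate 1. Across the alternatives 8 to 11 members were called higher and 11 to 12 lower. With the replicate block the counts were 9 and 11. No pairing by replicate number was seen: same-numbered deviations from the group means correlated at 0.003, 0.009 and -0.023, and the block moved no call of a member. These values cannot show whether same-numbered libraries were grown or prepared together. SPTLC1 passed with upper-quartile and library-size scaling and with a filter at 5 CPM (edgeR adjusted p = 0.0311, 0.0189 and 0.0332), and its log2 fold change was -0.005 without both libraries that stood apart. ORMDL2 passed under the same 3 settings and without knockdown replicate 2 (edgeR adjusted p = 0.0179), ORMDL1 without knockdown replicate 3 (0.0459) and SMPD2 with no filter (0.0231). Uncalled values near 0 changed sign: DEGS1 was at 0.001 with library-size scaling, and SMPD1 was at 0.02, 0.04 and 0.03 with upper-quartile scaling, library-size scaling and the 5 CPM filter, and from -0.06 to 0.02 with single libraries left out. B4GALT6 entered the test and passed without knockdown replicate 1 (log2 fold change 1.29; edgeR adjusted p = 0.0414). The level of UGCG over that of SGMS1 gave a knockdown over NC quotient of 0.954 to 1.08 with single libraries left out. The causes were not tested. With no filter, none of the 4 members below it passed (edgeR adjusted p = 0.213 for SPTLC3, 0.961 for SGMS2, 0.236 for B4GALT6 and 0.347 for SGPP1), at 16 counts or fewer in any library.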
